A study of Mus musculus with 6 samples.

Results

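The Fcgr2b, Fcgr4 and Fcgr3 genes lie side by side on mouse chromosome 1 and encode low- and medium-affinity receptors for the Fc part of IgG antibodies. Their start sites were taken as all peaks in a window of 120 kb, from 172880000 to 173000000 on chromosome 1 in mm9. That window held 54 of the 158966 peaks in the data. By strand and position, 18 peaks belonged to Fcgr2b (minus strand, 172880000 to 172912000), 18 to Fcgr4 (plus strand, 172940000 to 172970000) and 10 to Fcgr3 (minus strand, 172980000 to 172998000). The remaining 8 peaks fell in none of these intervals, 7 of them on the plus strand. No mm9 annotation was used here, so the gene names rest on these intervals. RefSeq lists the same 3 genes next to one another in that order, and on those strands, in a later build. The locus was chosen because its peak at 172989479 to 172989510 differed strongly between the groups, so every difference between the groups inside the window is given as a description, with no test.

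The values come from cap analysis of gene expression (CAGE), in which tags are read from the capped start of each RNA and tags piling up within a few bases form a peak, the mark of a start site. Total RNA was taken from Ba/F3, a mouse pro-B cell line that is grown with interleukin-3 unless an active kinase replaces it, and the label gives the strain as BALB/c. In 1 group of 3 libraries the cells carried FLT3-ITD, an internal tandem duplication of the receptor tyrosine kinase FLT3. In the other 3 libraries they carried D835Y as well as FLT3-ITD, D835Y being a substitution in the activation loop of the kinase, and these are termed the compound mutant. All 6 libraries thus share FLT3-ITD, and cells without it were not analysed here. Whether a group is a pool or a single clone, and whether its replicates were separate cultures, is not given in the labels, so the spread between libraries may be technical. The labelled cell type was not checked against its marker genes, since the files name peaks by position only.

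Fc gamma receptors link antibody binding to a response of the cell. Fcgr3 and Fcgr4 are activating receptors that signal through the common Fc receptor gamma chain and are known from macrophages, neutrophils and, for Fcgr3, natural killer and mast cells. Fcgr2b is the inhibitory receptor of the family and carries an inhibitory tyrosine motif in its own cytoplasmic tail. It is the Fc gamma receptor of B cells and is also found on myeloid cells.

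The promoters of the 3 genes were all in RefSeq's promoter table for GRCm38.p6, a later build than the peak positions. The coordinates given with them are in that build and cannot be set against the mm9 peaks. Each sequence covers 250 bases before and 50 after the annotated start, 5′ to 3′ on the gene's strand. Capitals mark the letters GAGGAA (the PU.1 box) on either strand, read on the opposite strand as TTCCTC. These letters are a form of the site bound by the myeloid and B-cell factor PU.1.
Fcgr2b, chr1:170976022-170976321, minus strand: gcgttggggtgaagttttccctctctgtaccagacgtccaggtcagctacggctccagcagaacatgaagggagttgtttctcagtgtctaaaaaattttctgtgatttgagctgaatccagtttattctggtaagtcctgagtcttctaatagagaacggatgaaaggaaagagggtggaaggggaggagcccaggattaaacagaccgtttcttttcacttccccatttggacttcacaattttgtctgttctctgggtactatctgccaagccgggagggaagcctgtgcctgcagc
Fcgr4, chr1:171018676-171018975, plus strand: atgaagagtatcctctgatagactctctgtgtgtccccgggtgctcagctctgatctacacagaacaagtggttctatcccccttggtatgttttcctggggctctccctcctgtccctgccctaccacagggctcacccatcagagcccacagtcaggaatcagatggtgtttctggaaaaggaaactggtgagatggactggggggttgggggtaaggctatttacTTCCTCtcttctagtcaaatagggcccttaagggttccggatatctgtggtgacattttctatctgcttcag
Fcgr3, chr1:171059354-171059653, minus strand: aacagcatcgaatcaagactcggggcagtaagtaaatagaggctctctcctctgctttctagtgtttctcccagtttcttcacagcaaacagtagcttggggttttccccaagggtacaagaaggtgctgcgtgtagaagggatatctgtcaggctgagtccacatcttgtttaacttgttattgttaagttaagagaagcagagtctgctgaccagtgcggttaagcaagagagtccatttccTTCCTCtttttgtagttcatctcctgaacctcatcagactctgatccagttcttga
A second Fcgr3 entry starts 9 bases further along. The PU.1 box was present once in the Fcgr3 promoter, at bases 245 to 250, and once in the Fcgr4 promoter, at bases 229 to 234, both on the strand opposite the gene. These exact letters were not in the Fcgr2b window, and other forms of the site were not searched. Of all 32851 promoters in the table, 28.3% held it. The other motifs searched on both strands were the GAS element of STAT factors (TTCNNNGAA, in 8.3% of promoters), the TATA box (TATAAA, 13.6%), the AP-1 site (TGANTCA, 7.81%), the CCAAT box (CCAAT, 37.4%) and the GC box (GGGCGG, 35.7%). None of these letters occurred in the 3 windows printed. The motifs were picked with the sequences in view. Fcgr2b and Fcgr3 are close paralogs in their coding parts. The longest run of bases shared by their promoters was 8, and that shared by Fcgr3 and Fcgr4 was 10. No chance level was computed for such runs, so whether the promoters are alike was not tested.

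Fcgr3 was close to silent in FLT3-ITD cells and active in the compound mutant, Fcgr2b was low in FLT3-ITD cells and higher in the compound mutant, and Fcgr4 was at the limit of detection in both. Summed over its 10 peaks, Fcgr3 went from 0.505 ± 0.11 to 31.1 ± 2.6 tags scaled to a common library total (CPM, as deposited; mean ± SD, n = 3 each). Fcgr2b, over 18 peaks, went from 1.98 ± 0.77 to 5.58 ± 0.11 CPM. Over the whole window the sum was 2.89 ± 0.59 CPM with FLT3-ITD alone and 36.9 ± 2.8 CPM in the compound mutant. Fcgr2b held 69.9% of the locus tags in the pooled FLT3-ITD libraries (58 of 83, exact 95% binomial interval 58.8 to 79.5%) and 15.02% in the pooled compound-mutant libraries (201 of 1338, 13.1 to 17.1%). The share of Fcgr3 was 16.9% (14 tags, 9.54 to 26.7%) in the first group and 84.2% (1127 tags, 82.2 to 86.1%) in the second. In bulk RNA, fewer cells with a transcript and less of it per cell cannot be told apart.

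**Figure D1:**
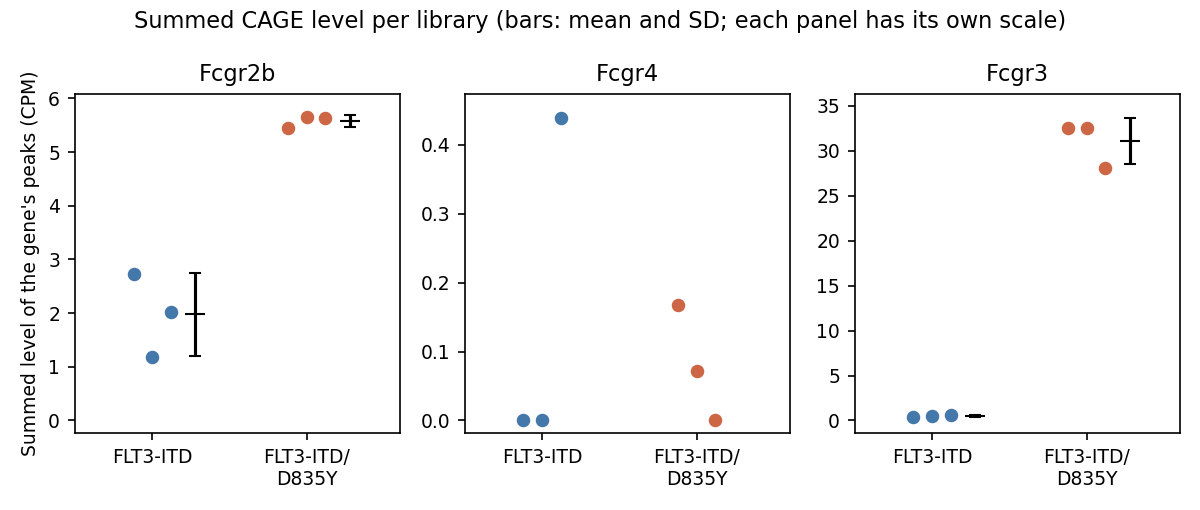
Summed CAGE level of Fcgr2b, Fcgr4 and Fcgr3 in CPM (vertical axis, a separate scale in each panel), with 1 point per library, for FLT3-ITD (blue) and compound-mutant libraries (orange); bars give the mean and SD and are left out for Fcgr4, which rests on 8 tags in all. The compound-mutant libraries lie above all FLT3-ITD libraries for Fcgr2b and Fcgr3, and the groups overlap for Fcgr4.

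The libraries held 5884258 to 13977941 tags, so 1 tag was worth 0.0715 to 0.170 CPM. A library without a tag may still have had a level of up to 3 tags, which is 0.215 to 0.510 CPM. These floors, like the intervals on tags, cover counting error only. FLT3-ITD replicate 2 had the fewest tags. Of the 54 peaks, 35 had no tag in any library, 14 had 1 to 9 tags in all and 5 had 10 or more. Only 2 peaks reached 1 CPM in any library, the leading (most active) peaks of Fcgr2b and Fcgr3. The other 52 stayed at or below 0.439 CPM in every library.

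The leading Fcgr3 peak, 32 bases wide at 172989479 to 172989510, had 0.195, 0.340 and 0.175 CPM in FLT3-ITD replicates 1 to 3 and 32.0, 31.5 and 27.4 CPM in compound-mutant replicates 1 to 3. All FLT3-ITD libraries held exactly 2 tags, and the compound-mutant libraries held 381, 441 and 277. The groups did not come near each other, and the 3 compound-mutant levels differed little among themselves. In pooled tags, 1099 against 6, the ratio was 140.1 with an exact 95% interval of 64.1 to 383, and the width of that interval comes from the 6 tags. On the log2(CPM + 1) scale, where the added 1 shrinks differences at low levels, the difference was 4.66 (SE 0.16).

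The leading Fcgr2b peak, 63 bases wide at 172906175 to 172906237 and 83.3 kb from the leading Fcgr3 peak, had 2.05, 1.02 and 1.23 CPM across the FLT3-ITD libraries and 5.12, 4.72 and 5.14 CPM across the compound-mutant libraries. These groups did not overlap either. Both leading peaks had tags in every FLT3-ITD library, and that of Fcgr2b was the higher one in each. The pooled tags of the leading Fcgr2b peak were 41 and 179, a ratio of 3.34 (exact 95% interval 2.37 to 4.81). The log2(CPM + 1) difference was 1.32 (SE 0.20).

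Fcgr4 had tags at 3 of its 18 peaks. Its summed level was 0, 0 and 0.439 CPM across the FLT3-ITD libraries and 0.168, 0.0715 and 0 CPM across the compound-mutant libraries. These values stand for 5 and 3 tags in the pooled groups, a ratio of 0.459 (exact 95% interval 0.0713 to 2.36). That interval covers counting error only, and so few tags do not allow a difference to be read in either direction. Its leading peak, at 172949072 to 172949110, held 3 tags in each group and lay 40.4 kb from the leading Fcgr3 peak. For comparison, the ratio over all Fcgr2b tags was 2.65 (exact 95% interval 1.97 to 3.61) and that over all Fcgr3 tags 61.6 (36.5 to 113). The most Fcgr4 tags seen in 1 library were 5, in FLT3-ITD replicate 3.

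**Figure D2:**
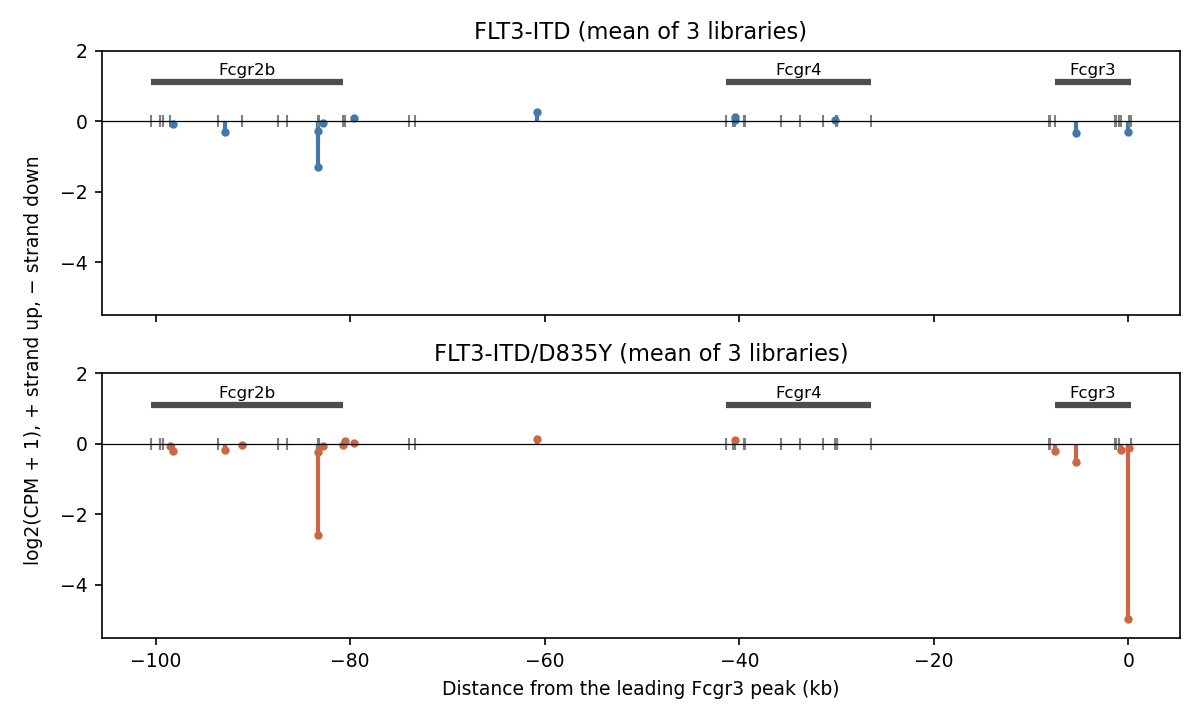
Mean level of each of the 54 peaks, log2(CPM + 1), against distance in kb from the leading Fcgr3 peak, for FLT3-ITD (top) and compound-mutant libraries (bottom); plus-strand peaks point up, minus-strand peaks down, grey ticks mark peaks with no tag in that group, and dark bars span the peaks of each gene. In the compound mutant 2 peaks stand out, with means of 4.99 CPM for Fcgr2b and 30.3 CPM for Fcgr3.

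Within Fcgr3, the starts were concentrated at the leading peak in the compound mutant. It held 97.5% of the gene's tags there (1099 of 1127, exact 95% interval 96.4 to 98.3%), and between 96.9% and 98.2% in single libraries. In FLT3-ITD cells it held 42.9% (6 of 14, 17.7 to 71.1%). The next most active Fcgr3 peak, at 172984110 to 172984142 and 5.37 kb from the leading one, had much smaller differences. Its levels were 0.195, 0.170 and 0.439 CPM across the FLT3-ITD libraries and 0.420, 0.429 and 0.395 CPM across the compound-mutant libraries, with a ratio of pooled tags of 1.43 (15 against 8, exact 95% interval 0.571 to 3.91). FLT3-ITD replicate 3 stood level with the compound mutant at that peak. The other 3 Fcgr3 peaks with a tag had tags in the compound mutant only, 5 at 172981952 to 172981995, 5 at 172988736 to 172988768, all of these in replicate 2, and 3 at 172989521 to 172989536. That last peak begins 11 bases from the end of the leading one. Together the 9 Fcgr3 peaks besides the leading one went from 0.268 ± 0.15 to 0.760 ± 0.22 CPM (8 and 28 tags, ratio 2.68, exact 95% interval 1.19 to 6.80).

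Within Fcgr2b, the leading peak held most of the tags in both groups. In pooled libraries it had 70.7% of the gene's tags in FLT3-ITD cells (41 of 58, exact 95% interval 57.3 to 81.9%) and 89.1% in the compound mutant (179 of 201, 83.9 to 93.0%). Single libraries had 75, 85.7 and 60.9% with FLT3-ITD and 93.8, 83.5 and 91.2% in the compound mutant, so the groups overlapped. The overlap came only from FLT3-ITD replicate 2, where the leading peak held 6 of 7 tags. The 17 other Fcgr2b peaks together had 0.547 ± 0.33 CPM with FLT3-ITD alone and 0.587 ± 0.31 CPM in the compound mutant, from 17 and 22 tags, a ratio of 0.990 (exact 95% interval 0.502 to 1.99). The most active of them were the peak at 172906135 to 172906146, with 7 tags in each group, and the peak at 172896616 to 172896654, with 7 tags in FLT3-ITD and 5 in the compound mutant. Of the 8 peaks outside the 3 gene intervals, 3 had a tag, all on the plus strand. The most active one, at 172928696 to 172928725 between Fcgr2b and Fcgr4, held 5 tags in FLT3-ITD and 4 in the compound mutant.

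Set against all promoters, the 2 leading peaks of Fcgr2b and Fcgr3 were the only members among the 19162 peaks that reached 1 CPM in at least 3 libraries. The leading Fcgr3 peak met that filter only through the compound mutant. Both had groups that did not overlap, with the compound mutant higher, as did 24.2% of all tested promoters. The locus was picked from this contrast, so nothing is read from this, nor from the ranks that follow. By the size of the rise, the leading Fcgr3 peak was number 2 of 19162 and the leading Fcgr2b peak number 327. By level, the Fcgr3 peak stood at percentile 0.629 of the tested promoters in FLT3-ITD cells and at percentile 79.0 in the compound mutant, and the Fcgr2b peak at percentiles 15.5 and 46.6. Peaks that low in both groups were kept out by the filter, so the FLT3-ITD percentiles do not measure how silent a peak was. Going from under 0.5 CPM in every FLT3-ITD library to at least 25 CPM in every compound-mutant library was seen at 2 tested promoters. These were the leading Fcgr3 peak and the plus-strand peak of chromosome 11 at 4216159 to 4216171, and 0 promoters met the same limits in the opposite direction. The limits were chosen with the values of the Fcgr3 peak in view, so that peak had to meet them. Nothing is read from the count or its direction.

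**Figure D3:**
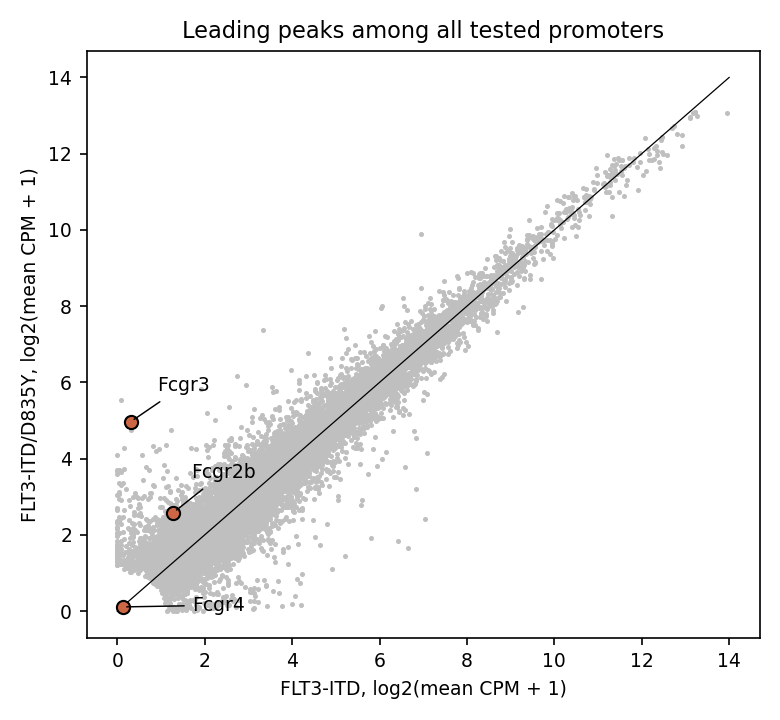
Mean level of the 19162 tested promoters (grey), log2(mean CPM + 1), in FLT3-ITD (horizontal) and compound-mutant libraries (vertical), with the leading peaks of Fcgr2b, Fcgr3 and Fcgr4 in orange and a line of equal levels. Fcgr3 lies near the left edge, far above the line, Fcgr2b closer to it, and Fcgr4, which did not enter the test, near the origin.

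Tested promoters had a median width of 35 bases, with quartiles of 18 and 57. The leading Fcgr3 peak stood at percentile 45.7 of width and the Fcgr2b peak at percentile 81.0. Likeness of profile was measured as the root mean square difference in log2(CPM + 1) over the 6 libraries. The nearest promoter to the leading Fcgr3 peak, at 0.35, was the plus-strand peak of chromosome 7 at 29581028 to 29581089, with 0.0975, 0 and 0.614 CPM across the FLT3-ITD libraries and 21.5, 31.6 and 24.3 CPM across the compound-mutant libraries. Next came the chromosome 11 peak at 4216159, at 0.46, and the minus-strand peak of chromosome 3 at 68848619 to 68848685, at 0.59. Within a difference of 0.5 there were 2 promoters for Fcgr3 and 438 for Fcgr2b. That limit is looser for the Fcgr2b peak, whose groups differed by 1.32, than for the Fcgr3 peak, whose groups differed by 4.66. The profiles also hold the contrast that the locus was chosen from, so nothing is read from these counts. No such count is given for Fcgr4, since the filter keeps promoters as low as that out of the search. The 3 nearest to Fcgr2b were the plus-strand peak of chromosome 17 at 95264277 to 95264286 (0.18), the minus-strand peak of chromosome 7 at 97278504 to 97278555 (0.18) and the minus-strand peak of chromosome 15 at 77426540 to 77426561 (0.19).

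Promoters around the locus, which were not used to choose it, held none that rose past the threshold. Up to 500 kb to either side of the window there were 31 tested promoters, of which 0 rose and 6 fell in the compound mutant by limma at an adjusted p under 0.05. With edgeR or DESeq2 on recovered tags 0 neighbours rose as well, where 2364 and 1702 of all 19162 tested promoters rose. At an unadjusted limma p under 0.05, 0 neighbours were higher and 7 were lower. By limma, 14.1% of all tested promoters rose and 10.4% fell at an adjusted p under 0.05. At an unadjusted p under 0.05, 21.2% were higher and 16% lower. This excess of rises depended on the scaling. Of the 4680 promoters that passed, 2695 rose, against 2444 of 4903 with TMM scaling and 2430 of 4902 with RLE scaling. With TMM scaling the median log2 difference over all tested promoters was 0.007. The 6 are 19.4% of the neighbours, against 24.4% of all tested promoters in either direction. Over the 31, the median log2 difference was -0.18, against 0.05 for all tested promoters and 0.10 for chromosome 1, where 25.5% of promoters changed. Within 120 kb there were 8 tested promoters, and 2 of them fell.

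The tested promoter nearest to the window on the Fcgr2b side, on the minus strand at 172855787 to 172855790, was strongly expressed. It had 414, 353 and 431 CPM across the FLT3-ITD libraries and 310, 193 and 290.1 CPM across the compound-mutant libraries, without overlap, a log2 difference of -0.62 (SE 0.17, limma adjusted p = 0.019). On the Fcgr3 side the nearest one, on the minus strand at 173059851 to 173059876, did not pass (log2 difference -0.35, SE 0.28, limma adjusted p = 0.39). Near it the minus-strand promoter at 173066279 to 173066291 fell by 0.86 (SE 0.28, limma adjusted p = 0.041), with 1.76, 3.57 and 4.30 CPM across the FLT3-ITD libraries and 2.18, 0.858 and 0.890 CPM across the compound-mutant libraries, which overlap. The strongest fall within 500 kb was at 172519922 to 172519985 on the minus strand, from 3.39 ± 0.49 to 0.871 ± 0.15 CPM (SD, n = 3 each; log2 difference -1.23, SE 0.18, limma adjusted p = 0.00043). The only neighbour higher by at least 1 (log2), at 173080723 to 173080740, had 41.1, 1.87 and 32.2 CPM in FLT3-ITD and 38.8, 21.7 and 35.0 CPM in the compound mutant. It did not pass (log2 difference 1.01, SE 1.23, limma adjusted p = 0.62), and FLT3-ITD replicate 2 stood far below the other libraries there. Without FLT3-ITD replicate 2, and likewise without replicate 3, 3 neighbours passed in place of 6. Against a fold of 1.5, limma passed 0 of the 31 neighbours (1 at an unadjusted p under 0.05) and 550 of all 19162 promoters. With so small a share passing anywhere, the 0 does not set the neighbours apart.

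**Figure D4:**
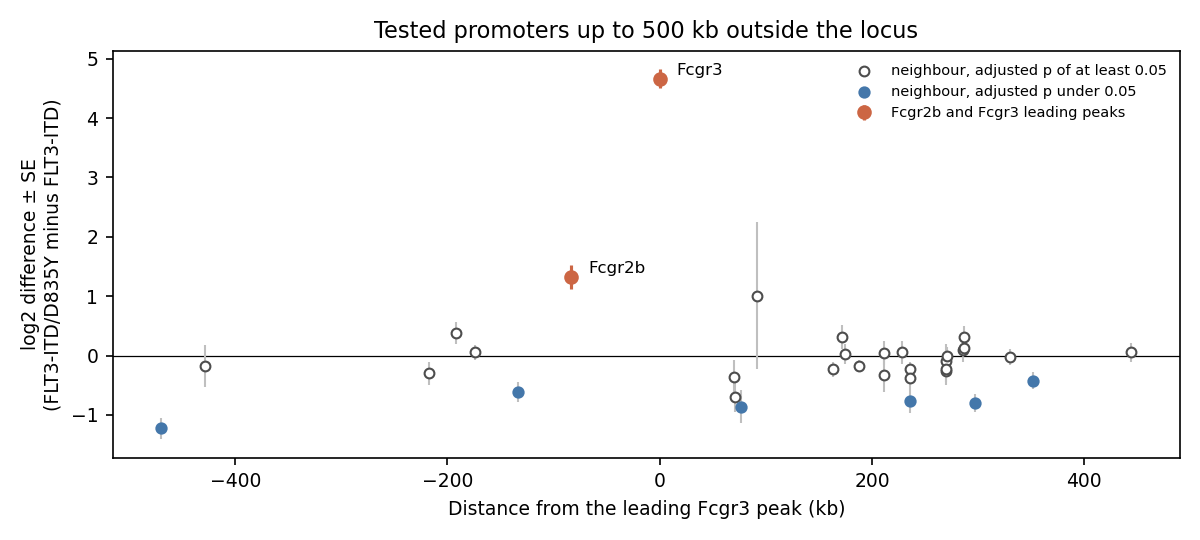
Log2(CPM + 1) difference with its SE, compound mutant minus FLT3-ITD, of tested promoters against distance in kb from the leading Fcgr3 peak, up to 500 kb outside the window; filled blue points are the 6 neighbours with an adjusted p under 0.05 and open points the other neighbours. The leading peaks of Fcgr2b (1.32) and Fcgr3 (4.66), in orange, lie above every neighbour plotted. The locus was chosen from this contrast, so nothing is read from that order. The SE of the highest neighbour (1.01, SE 1.23) reaches past the Fcgr2b value.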

How the data were processed

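CAGE libraries of Ba/F3 cells were compared, 3 with FLT3-ITD and 3 with FLT3-ITD plus D835Y, grouped by sample title, since another label numbers the substitution upward from sample to sample. The deposited values are CPM per peak, scaled by the authors to a common total per library. The submitters' processing notes name TopHat2 2.0.14, edgeR 3.24.3 and the builds mm9 and hg19. For peak making and for tags with several matches, no source used here gives the method. Every CPM value was a whole multiple of the value of 1 tag (tolerance 0.01 of a tag), so tags were recovered, and shares and ratios of pooled tags carry exact 95% intervals (scipy 1.17.1). Replicates of a group varied 4.05 to 19.4 times more than sampling alone gives, so none repeated another.

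Peaks that reached 1 CPM in at least 3 libraries were tested together with limma 3.58.1 (trend, robust; R 4.3.3) on log2(CPM + 1), group as the only term, two-sided, with Benjamini-Hochberg adjustment over all of them and a threshold of 0.05. The fit was also run on simulated tags that had the same spread setting for all peaks, which does not give its error rate on these data. All peaks of the window that reached 1 CPM in any library were named, with the 3 most alike promoters for each gene's leading peak (not named for Fcgr4, whose level lies under the filter). Other peaks were picked after their values were seen. Alternatives were TMM and RLE scaling, edgeR 4.0.16 and DESeq2 1.42.0 on recovered tags, another pseudocount, other filters, a fold of 1.5, a replicate term and leaving out libraries. The locus, its members and these choices were made with earlier results of these data known. Lists of Fc receptor signalling, B-lineage and myeloid genes were not used, since peaks carry no gene names in the files.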

Additional observations from a re-analysis of the deposited data

How the results depend on the processing

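Since the locus was chosen from this contrast, no count of its peaks past the threshold is given. With a minimum mean of 5 CPM the Fcgr2b peak did not enter the fit. The count over all promoters, 4680 of 19162 tested, was 2916 of 10250 tested with that minimum. It was 550 against a fold of 1.5 and 3076 to 5209 with a library left out. The log2 ratio of the summed Fcgr3 level, 5.94, was 7.0 with only the leading peak or only peaks that reached 1 CPM in 3 libraries, and 5.79 to 6.11 with a library left out. That of Fcgr2b, 1.5, was 1.23 to 1.80 and that of Fcgr4, -0.87, was -2.03 to -0.29 with a library left out. Without FLT3-ITD replicate 3, Fcgr4 had no tag in that group and no ratio. Neighbours past the threshold numbered 6, 0 against a fold of 1.5 and 3 to 6 with a library left out. The alternatives for neighbours were chosen after seeing the data. The log2 difference of the leading Fcgr3 peak was 4.62 to 7.06 over 15 refits and that of Fcgr2b 1.20 to 1.71 over 14, the highest from count models, which add no pseudocount of 1 CPM. Under the replicate block, 4109 promoters passed. Replicate numbers were not treated as pairing, since the labels do not say that they pair samples. Libraries sharing a number had deviations from their group means that correlated at -0.01, 0.02 and 0.19. Those of unlike number correlated at -0.18 to 0.15. With so few libraries in each group, these values cannot decide whether samples were paired. Depth limits Fcgr4 and the weak peaks, where 1 tag is worth up to 0.170 CPM.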
